A study of Mus musculus and Sus scrofa with 18 samples.

Results

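The genes of MHC class I antigen presentation and peptide loading were followed through the striatum of 9 mice. The 10 genes were chosen by name and matched to the Ensembl identifiers of the mouse count table, in which all 10 of them were found among 55357 genes. They are the class I heavy chain genes H2-K1, H2-D1, H2-Q4, H2-Q6 and H2-T23, the light chain gene B2m, the peptide transporter genes Tap1 and Tap2, the tapasin gene Tapbp and the transactivator gene Nlrc5. All 10 passed the filter on low counts that left 19463 genes for testing.

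The 9 mice formed 3 groups of 3. Heterozygous HD 140Q-KI mice, in which exon 1 of the endogenous Htt gene is replaced by the human HTT exon 1 carrying an expanded CAG repeat, were bred from C57BL/6J females. Untreated HD mice received AAV9-CasRx with a control gRNA (CasRx/Ctrl gRNA), treated HD mice received AAV9-CasRx with gRNAs against human HTT exon 1 (CasRx/HTT gRNAs), and WT mice received AAV9-Ctrl gRNA without CasRx. CasRx is an RNA-cutting Cas13 nuclease that was driven here by the ubiquitous CAG promoter, and every gRNA vector also carried GFP, so that a difference between an HD group and WT joins the effects of the allele and of CasRx delivery. Vectors were injected into both striata at 6 months of age, tissue was taken 1.5 months later, and each library came from a separate animal.

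Class I molecules present peptides from inside the cell to CD8 T cells. A heavy chain pairs with beta-2-microglobulin in the endoplasmic reticulum, where the TAP transporter, built from Tap1 and Tap2, brings in peptides cut by the proteasome, and tapasin holds the empty class I molecule at the transporter while a peptide is loaded. Nlrc5 is the transactivator that drives class I, B2m and Tap1 promoters together with a complex bound to their X and Y boxes, and interferons raise the whole set, in part through interferon regulatory factors. Neurons of the resting brain are known for low class I expression, with microglia and endothelial cells carrying more.

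Of the 10 genes, 8 had an entry in the RefSeq promoter table for the build GRCm38.p6, and Tap2 and Nlrc5 did not. The 250 bases before the start site of 5 of them are shown because the elements through which class I genes share their control lie there. Each is written in the direction of its gene, and capitals mark 5 motifs searched on both strands: an interferon-stimulated response element (GAAANNGAAA), a shorter interferon response motif (GAANNGAAA, which the first contains), a kappaB-like motif (GGGNNTTCC), the core of the X2 box (TGACG) and the Y box (CCAAT). For H2-K1 the first of its listed start sites was used. H2-K1 is at chr17:34000348-34000597 on the minus strand, H2-D1 at chr17:35262844-35263093 on the plus strand, H2-T23 at chr17:36032702-36032951 on the minus strand, B2m at chr2:122147437-122147686 on the plus strand and Tap1 at chr17:34187306-34187555 on the plus strand.
H2-K1: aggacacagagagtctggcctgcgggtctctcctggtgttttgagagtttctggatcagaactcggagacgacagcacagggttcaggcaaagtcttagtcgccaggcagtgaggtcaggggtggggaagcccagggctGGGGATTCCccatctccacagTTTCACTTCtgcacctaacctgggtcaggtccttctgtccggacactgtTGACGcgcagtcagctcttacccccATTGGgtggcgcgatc
H2-D1: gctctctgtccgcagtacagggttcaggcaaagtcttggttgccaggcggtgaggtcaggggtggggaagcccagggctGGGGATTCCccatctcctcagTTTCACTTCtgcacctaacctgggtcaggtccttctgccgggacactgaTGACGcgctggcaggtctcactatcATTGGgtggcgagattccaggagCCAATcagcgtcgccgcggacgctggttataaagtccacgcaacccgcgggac
H2-T23: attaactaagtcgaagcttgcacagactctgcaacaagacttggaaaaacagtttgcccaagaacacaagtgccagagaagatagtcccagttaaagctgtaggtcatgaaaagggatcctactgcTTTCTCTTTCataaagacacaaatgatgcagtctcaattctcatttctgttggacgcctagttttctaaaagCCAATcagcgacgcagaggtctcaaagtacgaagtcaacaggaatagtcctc
B2m: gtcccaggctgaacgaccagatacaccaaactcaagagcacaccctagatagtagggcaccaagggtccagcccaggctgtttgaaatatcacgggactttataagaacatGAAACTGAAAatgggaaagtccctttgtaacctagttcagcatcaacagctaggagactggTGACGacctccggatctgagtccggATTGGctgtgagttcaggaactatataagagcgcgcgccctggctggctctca
Tap1: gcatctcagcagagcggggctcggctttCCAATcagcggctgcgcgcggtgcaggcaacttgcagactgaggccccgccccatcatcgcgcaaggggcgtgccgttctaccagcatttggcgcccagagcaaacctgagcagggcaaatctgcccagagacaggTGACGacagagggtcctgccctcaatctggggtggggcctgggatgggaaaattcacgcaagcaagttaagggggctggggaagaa

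The promoters of H2-K1, H2-D1, H2-Q4 and H2-Q6 were identical to each other at 77.3 to 87.4% of aligned positions. H2-K1 and H2-D1 were identical at 87.4% of 191 aligned positions, and H2-D1 and H2-Q6 at 82.9% of 251, whereas H2-D1 and H2-T23 shared 53.6% and H2-D1 and B2m 55.4%. The kappaB-like motif was present in H2-K1, H2-D1, H2-Q4 and H2-Q6 and in 4.98% of 32851 promoter windows of the same length. In each of these 4 promoters it was followed by the shorter interferon motif, which 6.31% of windows held, and the first bases of the motifs were 20 bases apart in H2-Q4 and 21 bases apart in the other 3. H2-T23 and B2m held the longer interferon motif instead, as did 2.98% of windows.

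The letters of the X2 core were found in H2-K1, H2-D1, H2-Q4, B2m and Tap1 and in 17.8% of windows. Those of the Y box were found in all 8 promoters and in 33.8% of windows. In H2-K1, H2-D1 and B2m the X2 core began exactly 25 bases before a Y box. The other 2 promoters with these letters did not keep this spacing. In H2-Q4 the match began 6 bases after 1 Y box and 18 bases before the other. It was not at the place of the H2-D1 core, where H2-Q4 reads TGACT. In Tap1 the match began 136 bases after the Y box. These matches describe letters and not binding.

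Expression was measured as counts from the 3′ ends of polyadenylated RNA. Levels are given as CPM, a gene's counts relative to the library size after TMM scaling, and differences as log2 fold changes with their standard error (SE) from one edgeR fit of all 9 libraries. A gene rose or fell where its p-value, adjusted over all 19463 tested genes by the Benjamini-Hochberg method, was below 0.05. Library totals ranged from 27184356 to 32102121 counts. Htt, the targeted gene, stood at 182 to 191 CPM in WT, 140 to 150 CPM in untreated and 130 to 140 CPM in treated mice. For Htt, treated against untreated mice gave a log2 fold change of -0.10 (SE 0.06, adjusted p 0.942), on 3′ counts that do not separate the alleles. Summed counts of 4 Y-linked genes were between 3435 and 5005 in the 3 WT mice and untreated replicate 1, and 0 in the other 5 HD mice, so that sex and genotype were nearly confounded.

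All 10 genes were higher in every HD mouse than in every WT mouse. Together they took 0.0160 to 0.0183% of all counts in WT mice, 0.0465%, 0.0804% and 0.317% in untreated replicates 1 to 3, and 0.0613%, 0.0909% and 0.182% in treated replicates 1 to 3. In untreated mice 8 of the 10 genes rose against WT, where 10.7% of tested genes were called in either direction and 4.58% as higher. In treated mice 3 of the 10 rose against WT, where 3.69% of tested genes were called in either direction and 0.904% as higher. Groups without overlap and higher than WT made up 15% of tested genes in untreated and 13.4% in treated mice.

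**Figure D1:**
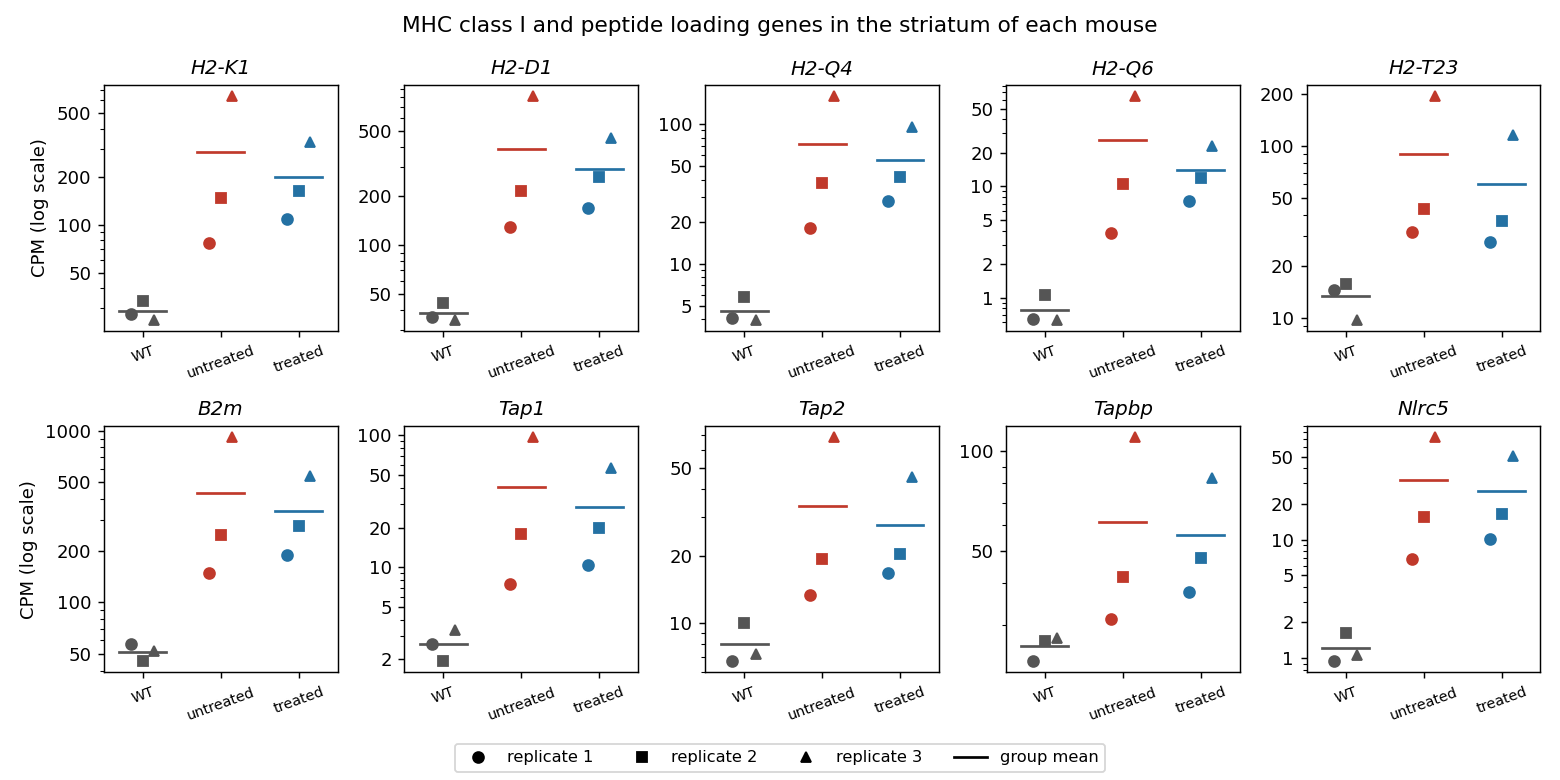
CPM of each of the 10 genes on a log axis, 1 panel per gene, with 1 point per mouse, shapes for the replicate number and a line for the group mean. All 6 HD mice lie above the 3 WT mice in 10 of 10 panels, and the highest point is untreated replicate 3 in every panel.

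Among the heavy chains, H2-K1 and H2-D1 encode the classical molecules that present peptides to CD8 T cells. H2-K1 (ENSMUSG00000061232) stood at 27.7, 33.2 and 25.4 CPM in WT mice, at 76.4, 147 and 639 CPM in untreated mice, and at 108, 162 and 327 CPM in treated mice. Even the lowest HD mouse, untreated replicate 1, was 2.30 times the highest WT mouse. H2-K1 rose in untreated mice, with a log2 fold change of 3.32 (SE 0.74, adjusted p 0.0248, n = 3 per group by edgeR). In treated mice its log2 fold change against WT was 2.79 (SE 0.73, adjusted p 0.0681).

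H2-D1 stood at 36.2, 44.2 and 34.9 CPM in WT, at 130, 214 and 815 CPM in untreated and at 168, 259 and 449 CPM in treated mice. The WT mice lay within 1.27-fold of each other, whereas untreated replicate 3 was 6.29 times untreated replicate 1. H2-D1 rose against WT in both HD groups, with a log2 fold change of 3.33 (SE 0.65, adjusted p 0.0156) in untreated and 2.93 (SE 0.64, adjusted p 0.0404) in treated mice.

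H2-Q4 and H2-Q6 are nonclassical heavy chain genes of the Q region. H2-Q4 was at 4.04, 5.80 and 3.96 CPM in WT, at 18.0, 37.8 and 158 CPM in untreated and at 28.2, 41.6 and 94.97 CPM in treated mice. It rose in both groups, by a log2 fold change of 3.96 (SE 0.81, adjusted p 0.0183) in untreated and 3.58 (SE 0.80, adjusted p 0.0432) in treated mice. H2-Q6 was low in WT mice, with 17, 29 and 19 counts, and had 108, 312 and 1906 counts in untreated and 241, 360 and 716 counts in treated mice. Its log2 fold change in untreated mice was 5.08 (SE 1.05, adjusted p 0.0195), the largest of the 10 genes, and in treated mice 4.18 (SE 1.03, adjusted p 0.0579).

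H2-T23 encodes Qa-1, which presents peptides from the leader of other class I molecules to natural killer cell receptors. It was at 14.7, 15.9 and 9.80 CPM in WT, at 31.8, 43.3 and 195 CPM in untreated and at 27.7, 36.9 and 116 CPM in treated mice. In contrast to the other 9 genes, its lowest HD value was in treated replicate 1. H2-T23 rose in untreated mice (log2 fold change 2.75, SE 0.76, adjusted p 0.0487), and in treated mice its log2 fold change was 2.16 (SE 0.74, adjusted p 0.135).

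Heavy chain genes are close copies of each other, and reads from their 3′ ends can be divided among them by the counting. Of the different 50-base windows in the last 500 bases of their annotated transcripts, 42.9% of those of H2-Q6, 38.1% of H2-T23 and 33.7% of H2-Q4 also occur in transcripts of other genes, compared with 9.6% for H2-K1, 8.92% for H2-D1 and 0 for B2m, Tap2 and Nlrc5. Tap1 shared 2.75% of its windows with its neighbour Tap2, and Tapbp 4.83% with Zbtb22. Not all of this sharing was among heavy chain genes. H2-Q6 was the only gene with an H2 name whose transcripts held end windows of H2-Q4. In the other direction, end windows of H2-K1, H2-Q6 and H2-T23 also occurred in transcripts of H2-Q4. H2-D1 and H2-T23 also shared windows with many genes of other names. The single values of H2-Q4, H2-Q6 and H2-T23 are therefore uncertain. The sum over 16 H2 heavy chain genes does not depend on how reads were divided among those 16, although some of the shared windows also occur in genes outside the sum. It was 105 to 136 CPM in WT mice, 320, 524 and 2108 CPM in untreated mice and 400, 581 and 1148 CPM in treated mice. The sum rose in untreated mice by a log2 fold change of 3.03 (SE 0.67, adjusted p 0.0238), and in treated mice the log2 fold change was 2.56 (SE 0.66, adjusted p 0.0648).

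B2m encodes beta-2-microglobulin, the light chain without which heavy chains do not reach the cell surface. B2m was at 56.8, 45.4 and 51.8 CPM in WT, at 148, 246 and 915 CPM in untreated and at 190, 280 and 546 CPM in treated mice. The WT mice spanned 1.25-fold and the untreated mice 6.18-fold. B2m rose in untreated mice (log2 fold change 3.09, SE 0.65, adjusted p 0.0204), and its log2 fold change in treated mice was 2.72 (SE 0.64, adjusted p 0.0505).

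The proportion of heavy chains to light chain varied little among the HD mice. The ratio of summed heavy chain counts to B2m counts was 2.11, 2.995 and 2.03 in WT, 2.16, 2.13 and 2.30 in untreated mice, and 2.11, 2.07 and 2.10 in treated mice, although B2m itself spanned from 45.4 to 915 CPM. The groups overlapped between either HD group and WT, with log2 differences of -0.09 (p = 1) for untreated and -0.16 (p = 0.7) for treated mice by an exact permutation test (two-sided), which cannot go below 0.1 with 3 mice a group. WT replicate 2 set this sign, since without it the log2 differences were 0.09 for untreated and 0.02 for treated mice. Treated mice lay below untreated mice by a log2 difference of -0.07 without overlap (exact p = 0.1, and 0.3 after adjustment over 9 such tests). The ratio of H2-K1 to H2-D1 was 0.728 to 0.765 in WT, 0.590 to 0.784 in untreated mice, and 0.626 to 0.729 in treated mice, with exact p-values of 0.4, 0.2 and 0.8 in the 3 comparisons.

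Tap1 and Tap2 encode the paired subunits of the peptide transporter and lie next to the immunoproteasome genes Psmb9 and Psmb8 within the class II region of chromosome 17. Tap1 was at 2.61, 1.95 and 3.32 CPM in WT, at 7.44, 18.0 and 96.6 CPM in untreated and at 10.3, 19.9 and 56.1 CPM in treated mice. It rose in untreated mice (log2 fold change 3.95, SE 0.98, adjusted p 0.0351), with a log2 fold change of 3.45 (SE 0.97, adjusted p 0.0827) in treated mice. The value of Tap1 in untreated replicate 3 was 13.0 times that in untreated replicate 1.

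Tap2 was at 6.72, 10.02 and 7.21 CPM in WT, at 13.3, 19.3 and 68.4 CPM in untreated and at 16.7, 20.4 and 45.3 CPM in treated mice. Its groups did not overlap with WT, but the lowest HD mouse was only 1.33 times the highest WT mouse. The log2 fold change of Tap2 was 2.08 (SE 0.61, adjusted p 0.0581) in untreated and 1.78 (SE 0.60, adjusted p 0.130) in treated mice, short of the threshold in both.

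The proportion of the transporter subunits to each other was compared in the same way. The ratio of Tap1 to Tap2 counts was 0.388, 0.194 and 0.461 in WT, 0.558, 0.929 and 1.41 in untreated mice, and 0.618, 0.974 and 1.24 in treated mice. Every HD mouse was above every WT mouse, with a log2 difference of 1.47 for untreated and 1.48 for treated mice, each at the smallest p the exact test can give (0.1, and 0.3 after adjustment). Treated and untreated mice overlapped in this ratio, with a log2 difference of 0.01 (exact p = 1).

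**Figure D2:**
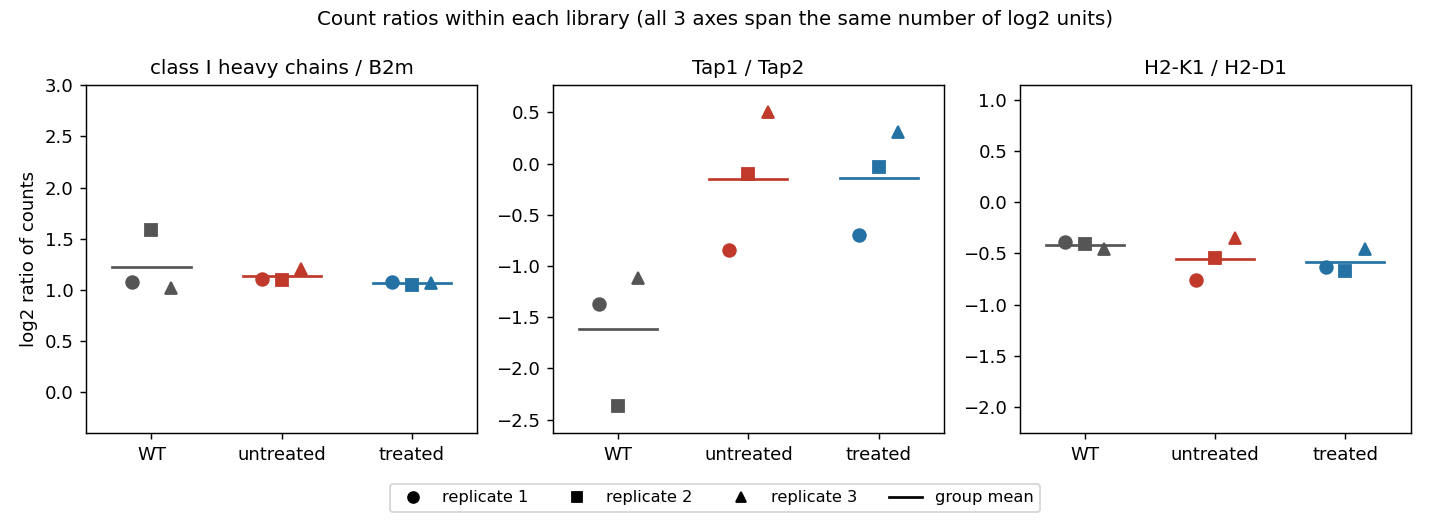
Log2 ratios of counts within each library for heavy chains over B2m, Tap1 over Tap2 and H2-K1 over H2-D1, with 1 point per mouse and a line for the group mean on axes of equal span. The heavy chain to B2m ratio is between 2.07 and 2.30 on the linear scale in all 6 HD mice, while the Tap1 to Tap2 ratio is higher in all 6 than in the 3 WT mice.

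Tapbp encodes tapasin, the chaperone that joins class I molecules to the transporter, and differed least of the 10 genes. Tapbp was at 23.3, 26.8 and 27.3 CPM in WT, at 31.3, 41.7 and 110 CPM in untreated and at 37.5, 47.5 and 83.0 CPM in treated mice. Untreated replicate 1 was 1.14 times the highest WT mouse. The log2 fold change of Tapbp was 1.24 (SE 0.45, adjusted p 0.103) in untreated and 1.12 (SE 0.44, adjusted p 0.187) in treated mice.

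Nlrc5, the class I transactivator on chromosome 8, was at 0.94, 1.61 and 1.06 CPM in WT, at 6.88, 15.5 and 72.7 CPM in untreated and at 10.1, 16.3 and 50.4 CPM in treated mice. Its lowest HD mouse was 4.26 times its highest WT mouse, the widest such gap of the 10 genes. Nlrc5 rose against WT in both groups, by a log2 fold change of 4.71 (SE 0.99, adjusted p 0.0203) in untreated and 4.40 (SE 0.98, adjusted p 0.0429) in treated mice. B2m on chromosome 2 and Nlrc5 lie outside the cluster on chromosome 17 that holds the other 8 genes.

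**Figure D3:**
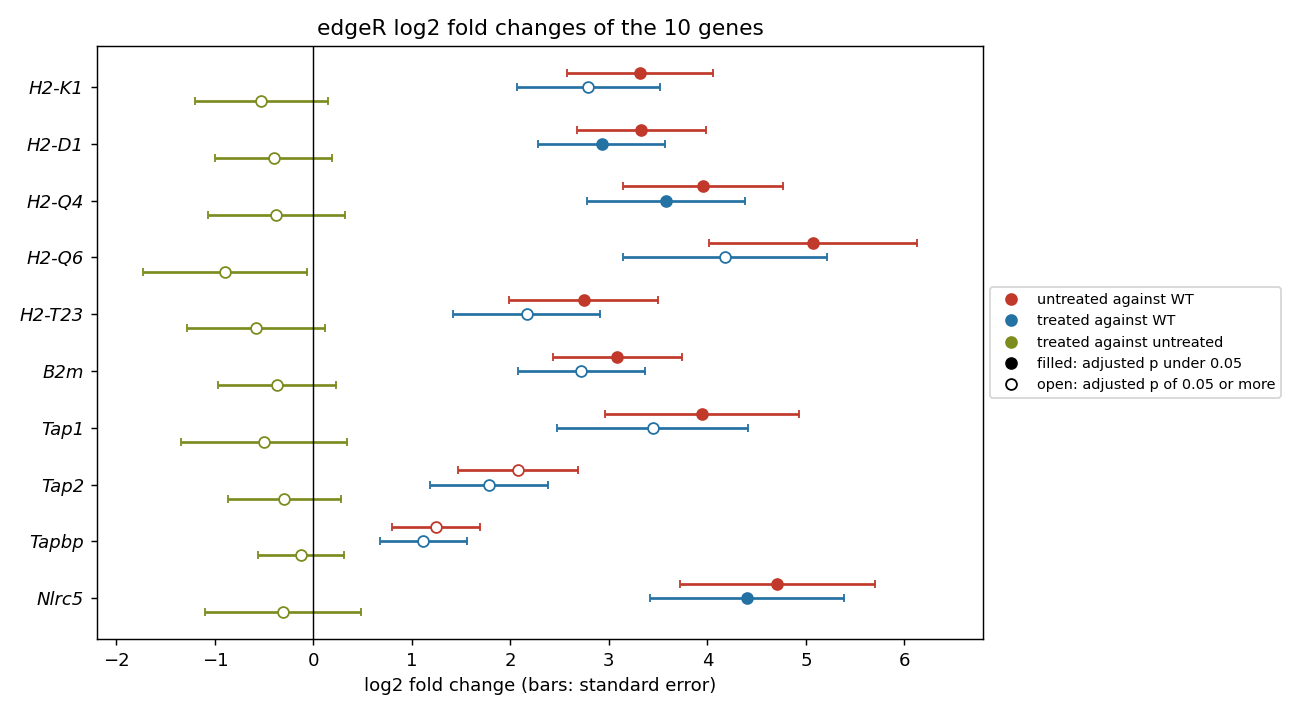
Log2 fold changes of the 10 genes in the 3 comparisons, with bars for 1 standard error and filled points for an adjusted p under 0.05. In untreated against WT 8 points are filled, in treated against WT 3, and in treated against untreated 0, where all 10 points lie below zero.

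The median log2 fold change of the 10 genes was 3.32 in untreated mice, and 2.86 in treated mice against WT, compared with 0.02 and 0.00 over all tested genes. By an unadjusted P under 0.05 with at least a 2-fold difference, 10 of 10 genes passed in both comparisons, where 5.57% of tested genes passed as higher in untreated and 3.84% in treated mice. The number of calls changed when single mice were left out. Without WT replicate 2 none and without WT replicate 3 only H2-D1 of the 10 genes rose in untreated mice, while without untreated replicate 3 there were 6. In treated mice the number was 0 without any 1 of the WT mice, untreated replicate 2 or any 1 of the treated mice, 6 without untreated replicate 1 and 10 without untreated replicate 3. All 10 log2 fold changes against WT were positive in each of these fits. Their size changed less than the calls when a WT mouse was left out, with a median over the 10 genes of 3.44 in untreated mice without WT replicate 2, and of 2.80 to 2.98 in treated mice without 1 of the WT mice. Without untreated replicate 3 the median in untreated mice was 2.06, and without treated replicate 3 that in treated mice was 2.35.

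When the share of Y-linked counts was added as a covariate, none of the 10 genes was called against WT in either HD group, where that fit called 2.35% of tested genes in untreated and 0.0257% in treated mice. Their median log2 fold change was then 1.85 (adjusted p between 0.112 and 0.641) in untreated and 1.01 (adjusted p between 0.597 and 0.994) in treated mice. The only HD mouse with Y-linked counts, untreated replicate 1, had levels between 1.21 times the WT mean for Tapbp and 5.69 times for Nlrc5, with a median of 2.86 times. No WT mouse lacked Y-linked counts, so no such comparison could be made for the other 5 HD mice. The part of sex in these differences cannot be told apart from that of the groups.

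The treated and untreated groups both carried the knock-in allele and CasRx and differed by design in the gRNAs. Y-linked counts were unbalanced between them as well, at 4683 in untreated replicate 1 and 0 in the other HD mice. Their comparison therefore does not isolate the HTT gRNAs from sex. None of the 10 genes differed between treated and untreated mice by edgeR, where 0 of 19463 tested genes were called (0%), 1071 had an unadjusted P under 0.05, and DESeq2 called 45 genes, none of them among the 10. None of the 10 reached an unadjusted P under 0.05 either, and by that P with a 2-fold difference 0.771% of tested genes passed. The groups overlapped for all 10 genes, where 6.92% of tested genes were higher and 8.83% lower in treated mice without overlap. The log2 fold changes were all negative and ranged from -0.13 for Tapbp to -0.90 for H2-Q6, with a median of -0.39. The median was -0.82 with the Y-linked covariate and -0.16 with a replicate block. With untreated replicate 1 left out it was -0.81. That mouse was the only HD mouse with Y-linked counts, so the covariate fit came close to leaving it out.

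The intervals of these differences were wide. For H2-K1 the log2 fold change of treated against untreated mice was -0.53 with a 95% interval from -2.04 to 0.98, for B2m -0.37 with an interval from -1.71 to 0.98, for Tap1 -0.50 with an interval from -2.39 to 1.39, and for Nlrc5 -0.31 with an interval from -2.09 to 1.47. The summed heavy chains gave -0.47 (SE 0.62, adjusted p 0.995) with an interval from -1.86 to 0.92. A difference of 2-fold in either direction thus lies within the interval of Tap1 and of Nlrc5. The negative sign depended on untreated replicate 3, since without it all 10 log2 fold changes were positive (median 0.81) and the heavy chain sum was at 0.75. Without treated replicate 1, 2 of the 10 were positive. With replicate 3 of both HD groups left out, 9 of 10 were positive (median 0.25).

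The animals differed more within the HD groups than the groups did from each other. In 9 of the 10 genes the 6 HD mice stood in one order, from untreated replicate 1 through treated replicate 1, untreated replicate 2, treated replicate 2 and treated replicate 3 to untreated replicate 3. The exception was H2-T23, in which treated replicates 1 and 2 were each below the untreated mouse of the same number. The median of the 10 genes, relative to the WT mean, was 2.86, 5.32 and 21.7 times in untreated replicates 1 to 3 and 3.85, 6.19 and 11.5 times in treated replicates 1 to 3. The median standard deviation of log2 CPM over the 10 genes came to 1.48 in untreated, 0.82 in treated and 0.31 in WT mice, compared with 0.16, 0.12 and 0.22 over all tested genes.

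**Figure D4:**
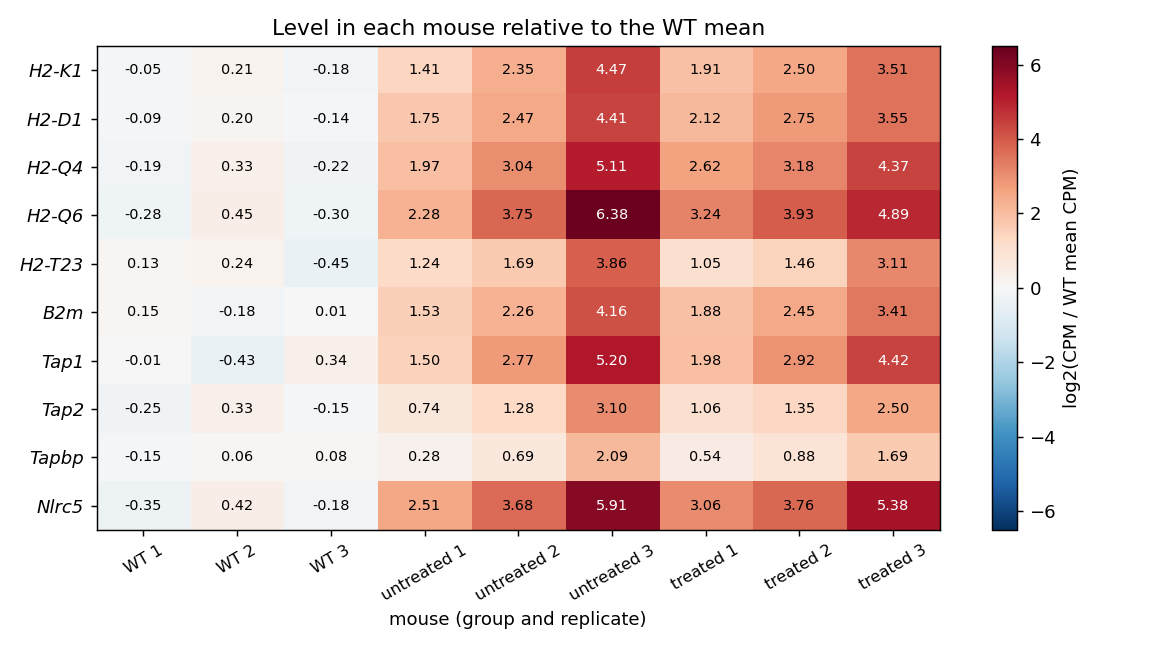
Log2 of the CPM of each gene in each mouse over the WT mean of that gene, with the value printed in each cell and rows in the order of the text. Values reach 6.38 for H2-Q6 in untreated replicate 3, and in every row untreated replicate 3 has the highest value.

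Over the 6 HD mice the log2 CPM of the 10 genes ran in parallel, with Pearson correlations of at least 0.931 in 45 pairs and a median of 0.991. This is a description of 6 libraries in which the same animals are high and low. By the same measure against the mean of the standardized 10 genes, 8 genes outside the list stood closest among 14835 candidates with at least 50 counts on average. They were Psmb8 (r 0.999), an immunoproteasome subunit, Parp14 (r 0.999), an ADP-ribosyltransferase, H2-Ab1 (r 0.997), a class II beta chain, Il12rb1 (r 0.997), a chain of the interleukin-12 receptor, Irf1 (r 0.996), an interferon regulatory factor, the guanylate-binding protein genes Gbp5 (r 0.995) and Gbp9 (r 0.995), and Ncf4 (r 0.995), a subunit of the phagocyte oxidase. Of the candidates 267 had a correlation above 0.95, which is 1.80%. H2-Ab1 showed the widest span of the 8, from 4.84 CPM in untreated replicate 1 to 210 CPM in untreated replicate 3, with 0.23 to 1.03 CPM in WT mice.

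Of the 20 class I and class I-like genes listed, 17 were tested, and 9 of them rose in untreated mice, with a median log2 fold change of 1.42. Beside the 5 heavy chains described, these were H2-Q7, H2-T10, H2-T24 and H2-M3, of which H2-T10 is annotated as a transcribed pseudogene. In untreated mice 1 of the 17, H2-Q2, had a negative log2 fold change, at -2.17 (adjusted p 0.145 by edgeR). In treated mice its log2 fold change was -1.36 (adjusted p 0.388), and it was not called in either group. H2-Q7, a neighbour of H2-Q6, had 25 to 31 counts in WT mice, 175, 525 and 2790 in untreated mice, and 369, 507 and 1370 in treated mice, and rose in both groups (log2 fold changes 5.31, adjusted p 0.0167, and 4.59, adjusted p 0.0456). In treated mice 3 of the 17 rose, namely H2-D1, H2-Q4 and H2-Q7. H2-M2 had 0 counts in all WT mice, 4, 5 and 214 in untreated mice, and 8, 19 and 37 in treated mice, and was not called (adjusted p 0.0747 and 0.226). The class I-like genes outside the H2 family, Cd1d1, Mr1, Hfe and Fcgrt, had log2 fold changes between 0.05 and 0.44 in untreated mice and were not called. Between treated and untreated mice the smallest P of the list belonged to H2-M5 (log2 fold change -0.90, adjusted p 0.889).

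Of the genes of peptide supply and chaperones all 14 listed were tested, and in untreated mice 4 rose and 1 fell, with a median log2 fold change of 0.55. Psmb8, Psmb9 and Psmb10, the catalytic subunits that replace those of the constitutive proteasome, rose with log2 fold changes of 3.97 (adjusted p 0.0241), 3.72 (adjusted p 0.0442) and 1.27 (adjusted p 0.0360), and Erap1, the aminopeptidase that trims peptides in the endoplasmic reticulum, with 1.06 (adjusted p 0.0499). Hspa5, a general chaperone of the endoplasmic reticulum, fell by 0.92 on the log2 scale (adjusted p 0.0305). The class I chaperones Calr, Canx and Pdia3 had log2 fold changes of -0.24, 0.04 and -0.19 and were not called. In treated mice none of the 14 passed the edgeR test against WT, with 7 at an unadjusted P under 0.05 and 5 called by DESeq2, and Psmb8 had a log2 fold change of 3.43 (adjusted p 0.0608). Psmb10 had the smallest P between treated and untreated mice, at a log2 fold change of -0.33 (adjusted p 0.995).

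Among 14 transcription factors of class I genes, all tested, 3 rose in untreated mice, with a median log2 fold change of 0.32. At an unadjusted P under 0.05 there were 6, and DESeq2 called 5, Irf1 among them. By edgeR Irf1 was not called, with a log2 fold change of 2.44 (SE 0.76, adjusted p 0.0711) in untreated and 1.97 (SE 0.76, adjusted p 0.172) in treated mice. Rfx5, a subunit of the complex that binds the X box, rose by a log2 fold change of 0.50 (SE 0.10, adjusted p 0.0156), and Irf2, a relative of Irf1, by 0.51 (SE 0.14, adjusted p 0.0439). The other X box and Y box subunits Rfxap, Rfxank, Nfya, Nfyb and Nfyc had log2 fold changes between -0.06 and 0.44, and the class II transactivator gene Ciita had 1.46 (adjusted p 0.194). None of the 14 passed in treated mice by edgeR, with 4 at an unadjusted P under 0.05 and 2, Rfx5 among them, called by DESeq2. Between treated and untreated mice Irf2 had the smallest P (log2 fold change -0.30, adjusted p 0.889).

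Interferon transcripts were scarce. Ifng had 0 counts in the WT mice, 0, 4 and 20 counts in untreated and 3, 2 and 3 counts in treated mice, Ifnb1 had 0 to 2 counts in any mouse, and Ifna4 had 0 counts in all 9, and none of them was tested. Of 14 listed interferon, receptor and signalling genes 11 were tested and 2 rose in untreated mice, among them Ifngr2, a chain of the interferon gamma receptor. Ifngr2 had 433 to 521 counts in WT, 911 to 1084 in untreated mice, and 807 to 930 in treated mice, and was called in both groups (log2 fold changes 0.94, adjusted p 0.00193, and 0.63, adjusted p 0.0218). It also had the smallest P of the list between treated and untreated mice, with a log2 fold change of -0.31 (adjusted p 0.886). Stat2, a transcription factor of the type I interferon response, had a log2 fold change of 1.06 (adjusted p 0.0797) in untreated mice.

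**Figure D5:**
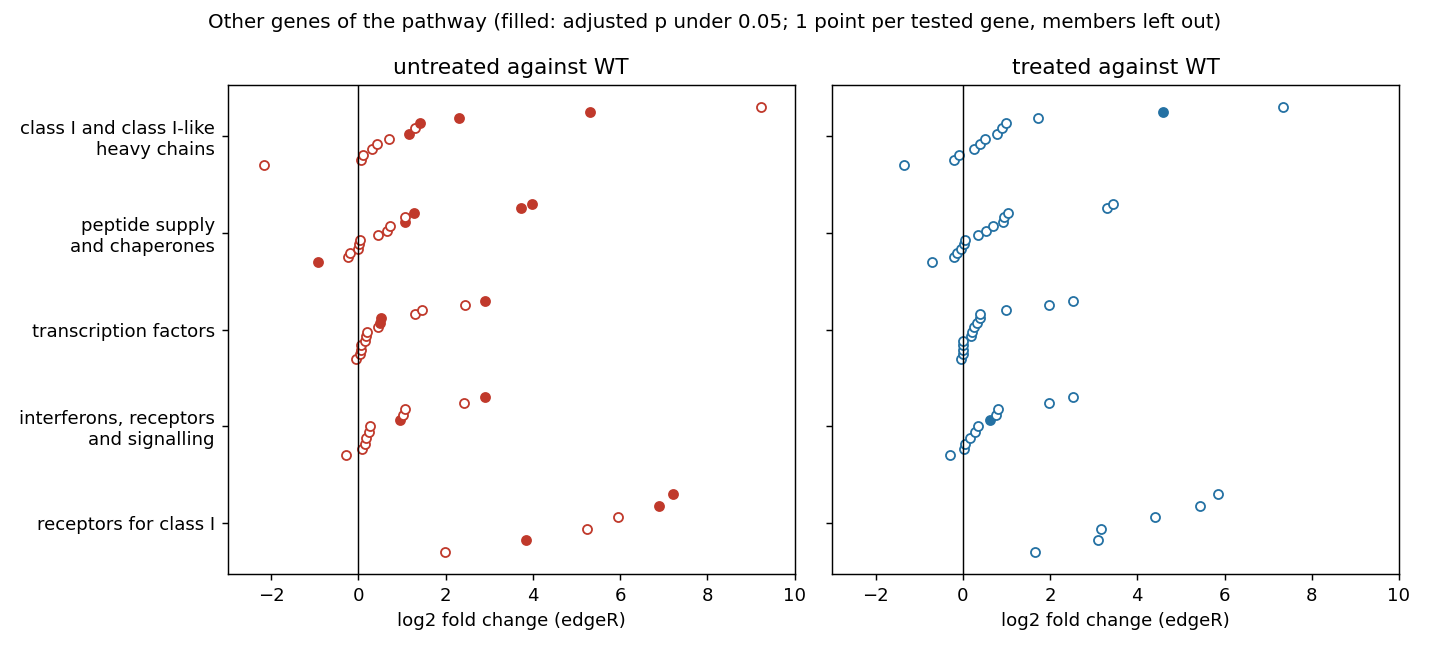
Log2 fold changes against WT of the other tested genes of 5 pathway lists, 1 point per gene, in untreated (left) and treated mice (right), with filled points for an adjusted p under 0.05. In the right panel only H2-Q7 and Ifngr2 are filled.

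Genes of lymphocytes and myeloid cells, among them receptors for class I, were also present. Of the 12 genes listed, not all of which bind class I, 6 were tested. By edgeR 3 rose in untreated mice and 0 in treated mice, where 4 had an unadjusted P under 0.05 and DESeq2 called 3. Cd8a, the co-receptor of T cells that recognise class I, had 0, 0 and 4 counts in WT, 33, 82 and 561 in untreated mice, and 26, 40 and 141 in treated mice (adjusted p 0.0209 and 0.0886 against WT). Cd3e, of the T cell receptor complex, had 0, 0 and 2 counts in WT, 10, 16 and 265 in untreated mice, and 19, 47 and 83 in treated mice (adjusted p 0.0360 and 0.101). Lilrb4a, an inhibitory receptor of myeloid cells, had 9 to 16 counts in WT, 34, 89 and 449 in untreated mice, and 58, 143 and 180 in treated mice (adjusted p 0.0316 and 0.0875). Klrd1, a natural killer cell receptor chain, had the smallest P between treated and untreated mice (log2 fold change -2.14, adjusted p 0.901).

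Marker genes of other cells were measured in the same libraries. In bulk striatum, fewer cells of a type and less RNA per cell cannot be told apart. The 13 T and NK cell markers summed to 70.2 to 82.3 CPM in WT, 32.2, 37.7 and 97.1 CPM in untreated and 41.9, 45.7 and 54.5 CPM in treated mice, most of it from Cd4 in WT mice. Without Cd4, which was left out after the values were seen, the sum was 1.66 to 7.52 CPM in WT, 14.1, 16.0 and 82.6 CPM in untreated and 9.35, 14.1 and 22.9 CPM in treated mice. Of the 10 tested markers 4 rose and 1, Cd4, fell in untreated mice, while 0 rose and Cd4 fell in treated mice. At an unadjusted P under 0.05 there were 10 in untreated and 6 in treated mice in either direction. DESeq2 called 7 as higher and 1 as lower in untreated mice, and 3 as higher and 1 as lower in treated mice. Cd3d and Cd3g were at 0 counts in all WT mice, so that they could only be called as higher. The 7 markers of infiltrating myeloid cells summed to 1.14 to 1.26 CPM in WT, 3.86, 7.29 and 39.5 CPM in untreated and 8.49, 14.0 and 21.1 CPM in treated mice, with 2 of 5 tested markers higher in each HD group, and the neutrophil genes S100a8 and S100a9 at 0 to 5 counts in every HD mouse. The 9 microglial markers summed to 332 to 363 CPM in WT, 377 to 749 CPM in untreated and 483 to 565 CPM in treated mice, with 0 of 9 called by edgeR in untreated mice (6 at an unadjusted P under 0.05 and 5 by DESeq2) and 1 in treated mice. The 7 endothelial markers summed to 148 to 180 CPM in WT, 193 to 236 CPM in untreated and 203 to 213 CPM in treated mice, with 2 of 7 higher in each group by edgeR. At an unadjusted P under 0.05 there were 6 of 7 in untreated and 7 of 7 in treated mice in either direction, and DESeq2 called 5 and 4.

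The 7 B and plasma cell markers summed to 101 to 136 CPM in WT, 88.7 to 181 CPM in untreated and 136 to 201 CPM in treated mice, and of the 5 tested, 2 rose and 1 fell in untreated mice while 3 rose in treated mice. The 9 markers of striatal projection neurons, which identify the tissue, summed to 5706 to 7520 CPM in WT, 1769 to 2121 CPM in untreated and 2891 to 2926 CPM in treated mice, and 9 of 9 fell in untreated and 8 of 9 in treated mice, where 6.1% and 2.78% of tested genes were called as lower. The 6 astrocyte markers summed to 2981 to 3651 CPM over all 9 mice with 0 called by edgeR against WT (2 at an unadjusted P under 0.05 in each HD group, and 1 in untreated mice, and 2 in treated mice by DESeq2), and the 6 oligodendrocyte markers summed to 7151 to 11444 CPM with 1 lower in untreated mice. Gfap, the intermediate filament of reactive astrocytes, which was named after its values were seen, stood at 86.2 to 180 CPM in WT, 231, 264 and 575 CPM in untreated mice, and 238, 477 and 369 CPM in treated mice. It was higher in every HD mouse than in every WT mouse, with log2 fold changes of 1.39 (SE 0.40, adjusted p 0.0546 by edgeR) in untreated and 1.40 (SE 0.40, adjusted p 0.0838) in treated mice, and DESeq2 called it in both. Sums of 6 choroid plexus markers ranged from 35.0 to 3752 CPM and of 5 red blood cell markers from 2.77 to 190 CPM over the 9 mice with WT mice at 65.1, 3752 and 1207 CPM and at 107 to 190 CPM. Untreated replicate 3 was thus the highest of the 9 mice in class I genes and also in T cell, myeloid, microglial, endothelial and astrocyte marker sums. The astrocyte sum was only slightly higher there (3651 CPM) than in treated replicate 2 (3620 CPM). Among the HD mice the T and NK cell sum without Cd4 was lowest in treated replicate 1 and the myeloid sum in untreated replicate 1. The part of these cells in the level of the class I genes was not tested.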

How the data were processed

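RNA from the striatum of 9 mice was sequenced, 3 each of WT, untreated HD and treated HD, grouped by their labels. The authors deposited raw counts per Ensembl gene, whole numbers without normalization, made from 3′ mRNA libraries primed with oligo-dT (MustSeq kit). Their methods name STAR, whereas the submitters' processing notes list Trimmomatic 0.39, FastQC 0.11.9, HISAT2 2.2.1 and featureCounts 2.0.1, and the mouse build and strand setting are not given in the sources used here. Coordinates are therefore given only for RefSeq promoter windows (GRCm38.p6). Gene names and transcripts came from GENCODE M21, which holds 94.1% of the gene IDs. The pig counts were left out.

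The test was the quasi-likelihood test of edgeR 4.0.16 under R 4.3.3 (filterByExpr, TMM, glmQLFit and glmQLFTest, group only), with 9 libraries in 1 fit and 6 residual degrees of freedom. P-values were adjusted by Benjamini-Hochberg over all tested genes. Each standard error is the size of the log2 fold change over the root of its F statistic. Within-library ratios were compared by two-sided exact permutation tests. The log2 CPM values behind standard deviations and correlations used a prior count of 2. In data simulated for untreated against WT over 19463 genes, 74.2% of genes changed 4-fold, 40.3% of those changed 2-fold and 20.9% of those changed 1.5-fold were recovered, with 7.22% false among the genes called. No 2 libraries of the same group agreed within sampling noise, and replicate numbers did not pair the animals.

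The 10 genes, the pathway lists and the marker lists were chosen with earlier results of these data known. Besides the 10 genes, the text names from each pathway list the 3 genes with the smallest P in untreated against WT and the 1 with the smallest P between treated and untreated mice, the 8 genes most alike over HD mice, and other members of small counts, which were chosen after their values were seen. The values of 1 gene that this rule selects are not reported here, although the counts over its lists include it. Alternatives were no TMM, DESeq2 1.42.0, no filter, a fit restricted to the groups compared, a replicate block, a Y-linked covariate, the unadjusted DEG rule and animals left out. Promoters were aligned with Biopython 1.88, with end gaps free, and figures drawn with matplotlib 3.10.9 in Python 3.11.15.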

Additional observations from a re-analysis of the deposited data

How the results depend on the processing

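Of the 10 genes, 8 were called in untreated against WT mice. The number was 5 with only the compared groups fitted, 0 with the Y-linked covariate and 0 to 9 with 1 mouse left out. In treated against WT mice 3 were called, with 7 by DESeq2, 0 without the low-count filter, 8 with only the compared groups fitted, 0 with the Y-linked covariate, 9 without replicate 3 of both HD groups, 10 by the unadjusted rule and 0 to 10 with 1 mouse left out. Over all tested genes the share called against WT moved as well, in untreated mice from 10.7% to 3.89% with only the compared groups fitted and 2.35% with the Y-linked covariate, and in treated mice from 3.69% to 10% by DESeq2, 1.03% without the filter, 5.54% with only the compared groups fitted, 0.0257% with the Y-linked covariate and 2.78% without replicate 3 of both HD groups. No alternative called any of the 10 between treated and untreated mice.

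Replicate numbers did not pair the animals: deviations of same-numbered untreated and treated mice correlated at 0.191, -0.003 and 0.236, and not every mouse correlated best with its own number. With the replicate block 10, 7 and 0 genes were called in the 3 comparisons, and the heavy chain sum of treated against WT mice passed at 2.27 (adjusted p 0.0425).

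For the heavy chain sum of untreated against WT mice the log2 fold change was 3.04 with only the compared groups fitted (adjusted p 0.0512), 1.67 with the Y-linked covariate (adjusted p 0.178) and 1.81 to 3.44 with 1 mouse left out. The call was lost without WT replicate 2 (adjusted p 0.0785) or WT replicate 3 (adjusted p 0.0643). In treated mice it was 2.57 by DESeq2 (adjusted p 0.0150), 2.56 with only the compared groups fitted (adjusted p 0.00888), 2.03 without replicate 3 of both HD groups (adjusted p 0.00959), all past the threshold, and 2.03 to 2.84 with 1 mouse left out, past it without untreated replicate 1 or 3.

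Between treated and untreated mice the heavy chain sum was at -0.89 with the Y-linked covariate, -0.88 without untreated replicate 1 and -0.24 with the replicate block. The sign of the log2 fold changes depended on which mice were kept. With 1 mouse left out they ranged from -1.003 to 0.75 for the heavy chain sum, -1.07 to 0.84 for H2-K1, -0.84 to 0.77 for H2-D1, -1.02 to 0.98 for H2-Q4, -1.44 to 0.98 for H2-Q6, -1.47 to 0.68 for H2-T23, -0.88 to 0.78 for B2m, -1.42 to 1.18 for Tap1, -0.85 to 0.75 for Tap2, -0.51 to 0.62 for Tapbp and -1.25 to 1.19 for Nlrc5. All were positive without untreated replicate 3, and Tapbp (0.10) and Nlrc5 (0.08) also without treated replicate 1. Without replicate 3 of both HD groups they were 0.22 for the heavy chain sum, 0.28 for H2-K1, 0.31 for H2-D1, 0.32 for H2-Q4, 0.43 for H2-Q6, -0.22 for H2-T23, 0.25 for B2m, 0.25 for Tap1, 0.18 for Tap2, 0.22 for Tapbp and 0.24 for Nlrc5. The cause of these changes was not tested. Direction against WT held for all 10 genes under every alternative run. With 3 mice a group, no exact test could go below 0.1, and the intervals between treated and untreated mice span several-fold.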

Other observations

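Cd4, the co-receptor of T cells that recognise class II, ran against the other T cell markers. It had 1658, 2175 and 2212 counts in WT mice, 518, 648 and 426 in untreated mice, and 1061, 959 and 976 in treated mice, without overlap between the 3 groups. Cd4 fell in both HD groups, with log2 fold changes against WT of -1.99 (SE 0.15, adjusted p 0.000239 by edgeR) in untreated and -1.18 (SE 0.14, adjusted p 0.00389) in treated mice, whereas Cd3g had 0 counts in all WT mice, 11, 34 and 333 in untreated mice, and 27, 41 and 58 in treated mice. Treated against untreated mice gave a log2 fold change of 0.81 for Cd4 (SE 0.14, adjusted p 0.552), and DESeq2 called it. The 9 markers of striatal projection neurons stood in the same order of groups, with the highest sums in WT and the lowest in untreated mice.

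Jchain, the joining chain of secreted IgA and IgM, was the marker of plasma cells with the most counts gained. It had 14, 6 and 16 counts in WT mice, 211, 1118 and 2778 in untreated mice, and 1781, 3477 and 2079 in treated mice, and rose in both HD groups (log2 fold changes 6.74, adjusted p 0.00438, and 7.51, adjusted p 0.00525). Its highest value was in treated replicate 2, not in untreated replicate 3, in which the class I genes were highest. Cd4, Cd3g and Jchain were named after their values were seen.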
